A study of Mus musculus with 3 samples.

Results

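The 9 genes described here are the 5 ligands of the vascular endothelial growth factor (VEGF) family, their 3 receptor tyrosine kinases and Esm1, a gene that endothelial cells switch on in response to VEGF. They were taken by symbol from a table of 39179 mouse genes, and all 9 were present once. The family was chosen by symbol with earlier results of these data known, and on 1 measured value, the far lower level of Flt1 in the GFP population described below. The differences of GFP from the other populations are therefore a description. Figf is an older symbol of Vegfd.

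RNA came from a mouse embryonic stem cell line in which eGFP reports contactin 2 (Cntn2), known from Purkinje fibres of the heart. A lentivirus added mCherry under aMHC, the promoter of the heart muscle myosin gene Myh6. All cells were differentiated in culture, received Sodium Nitroprusside, a nitric oxide donor, at day 4 and were sorted after 25 days. The populations were Cntn2:eGFP+ cells with dim mCherry (GFP), mCherry+ cells (MHC) and cells without either reporter (NEG). Each had 1 library of 1 line and every population carried the treatment. There is thus no replicate check, no p-value, and no untreated sample.

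VEGFA is a secreted growth factor of blood vessel formation that signals mainly through KDR (VEGFR2) on endothelial cells. FLT1 (VEGFR1) binds VEGFA, VEGFB and placental growth factor (PGF) tightly but signals weakly, and its soluble form holds ligand away from KDR. VEGFC and VEGFD (FIGF) act through FLT4 (VEGFR3), the receptor of lymphatic vessel growth. In the heart, cardiomyocytes and other non-endothelial cells supply VEGFA to the endothelium, and bone- and cartilage-forming cells are also known sources.

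The libraries held 47289405 to 52826956 reads summed over genes. Values are read counts divided by 1 size factor per library, with 1 read worth 0.914 in GFP cells, 1.01 in MHC cells and 1.13 in NEG cells. Differences are ratios of these values, with exact 95% intervals (Clopper-Pearson) that cover counting error only. A gene counts as higher or lower where (value + 1) differs by 2-fold and its larger value is at least 20, a limit on size with no test behind it. Cntn2 had a value of 10045 in GFP cells, 228 in MHC cells and 204 in NEG cells, and Myh6 had 4694, 186924 and 3843 in the same order. Both reporter genes were thus highest in the population sorted for them. All 13 mesothelial and epicardial markers were higher in GFP cells than in MHC cells, while 15 of 15 osteoblast and chondrocyte markers and 14 of 15 cardiomyocyte markers were lower. Of all 22235 genes with a mean of 10 or more, 29.8% passed in this comparison. What part cell make-up has in the results below was not tested. In sorted bulk RNA, fewer cells of a type and less RNA per cell cannot be told apart.

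Against MHC, 4 of the 9 were lower in GFP cells (Vegfa, Pgf, Flt1 and Esm1), 1 was higher (Vegfc) and 4 lay within 2-fold (Vegfb, Figf, Kdr and Flt4). Of all 20879 genes whose larger value reached 20, 31.9% passed the same rule in this comparison, 15.6% higher and 16.4% lower. Since the low Flt1 in GFP cells was part of how the set was proposed, nothing is read from the count. The median log2 ratio of (value + 1) was −0.89 over the 9 genes and −0.00 over the 22235 genes with a mean of 10 or more. The first is the value of Vegfb, in a set running from −8.56 for Esm1 to 3.21 for Vegfc. Since Flt1 is in the set, nothing is read from its median either.

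**Figure D1:**
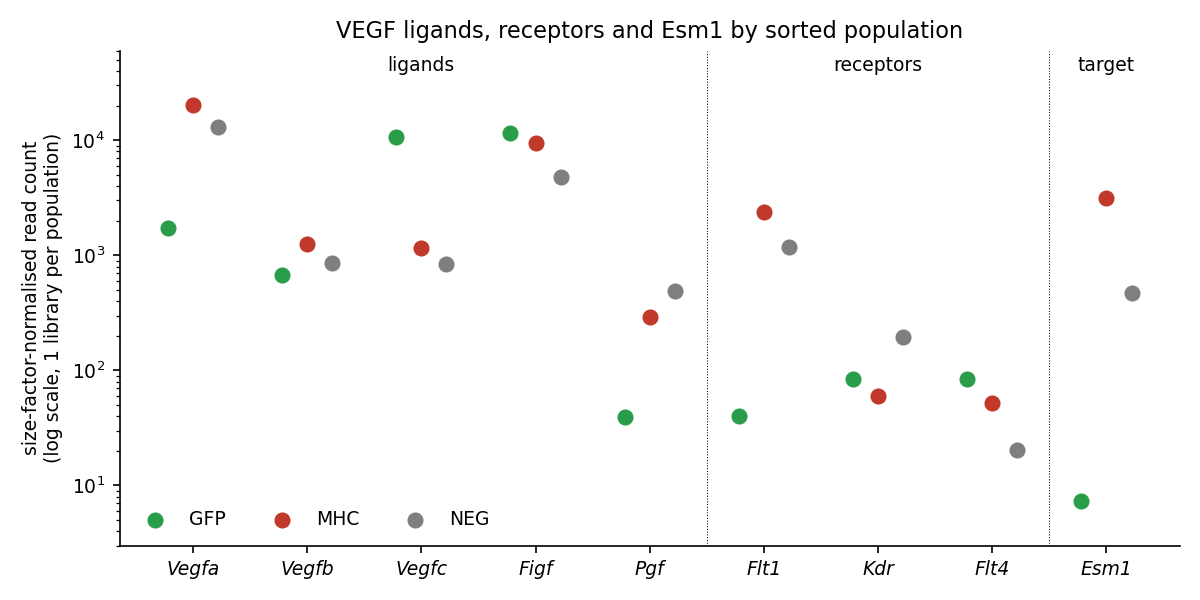
Size-factor-normalised read count of each gene (log axis) in the GFP, MHC and NEG libraries, 1 point per library, with ligands left, receptors in the middle and Esm1 right. Vegfa, Pgf, Flt1 and Esm1 have their lowest point in GFP cells, Vegfc stands out as high in GFP cells at 10779, and Kdr and Flt4 reach no more than 195 in any library.

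Among the ligands, Vegfa (ENSMUSG00000023951, chr17:46016993-46032377, mm10, protein-coding), the main growth factor for blood vessels, had a value of 1738 in GFP cells, 20279 in MHC cells and 13036 in NEG cells. GFP was the low library, 11.7-fold (95% interval 11.1 to 12.2) below MHC and 7.5-fold (7.15 to 7.88) below NEG. MHC and NEG were 1.56-fold apart, within the 2-fold limit. Pgf (ENSMUSG00000004791, chr12:85166639-85177296), whose product binds FLT1 and not KDR, had a value of 39.3 in GFP cells, 294 in MHC cells and 491 in NEG cells. It was likewise low in GFP cells, 7.47-fold (5.41 to 10.6) below MHC and 12.5-fold (9.13 to 17.5) below NEG, but here NEG and not MHC was the high library. Both differences of Pgf rest on 43 reads in GFP cells.

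Vegfc ran the other way. Vegfc (ENSMUSG00000031520, chr8:54077532-54186454), a ligand of FLT4, had a value of 10779 in GFP cells, 1162 in MHC cells and 849 in NEG cells. It was 9.28-fold (8.73 to 9.87) higher in GFP cells than in MHC cells and 12.7-fold (11.8 to 13.7) higher than in NEG cells, and MHC and NEG differed by 1.37-fold. Figf (ENSMUSG00000031380, chrX:164373378-164402650), which encodes the second FLT4 ligand VEGFD, had a value of 11484 in GFP cells, 9412 in MHC cells and 4752 in NEG cells. Its levels were close in GFP and MHC cells, at 1.22-fold (1.19 to 1.25), and 2.42-fold (2.33 to 2.5) higher in GFP cells than in NEG cells. Of the FLT4 ligands, Vegfc alone passed 2-fold between GFP and MHC. Vegfb (ENSMUSG00000024962, chr19:6982473-6987651), a FLT1 ligand known for its expression in heart muscle, had a value of 672 in GFP cells, 1249 in MHC cells and 861 in NEG cells. It stayed within 2-fold in every comparison, with GFP 1.86-fold (1.70 to 2.04) below MHC.

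In GFP cells all 3 receptors had under 100 reads, and in MHC and NEG cells Flt1 had the most. Flt1 (ENSMUSG00000029648, chr5:147561604-147726011) had a value of 40.2 in GFP cells, 2370 in MHC cells and 1174 in NEG cells, from 44, 2340 and 1039 reads. GFP was 58.9-fold (43.8 to 81.3) below MHC and 29.2-fold (21.6 to 40.4) below NEG. Kdr (ENSMUSG00000062960, chr5:75932827-75978458), the main signalling receptor for VEGFA, had a value of 84.1 in GFP cells, 59.8 in MHC cells and 195 in NEG cells. NEG was its high library: GFP was 2.32-fold (1.79 to 3.03) below NEG and 1.41-fold (1.004 to 1.99) above MHC. The counting interval of the difference from MHC begins barely above no difference. Flt4 (ENSMUSG00000020357, chr11:49609263-49652739), the receptor for VEGFC and VEGFD, had a value of 84.1 in GFP cells, 51.7 in MHC cells and 20.3 in NEG cells. It was 4.14-fold (2.48 to 7.29) higher in GFP cells than in NEG cells, where 18 reads were counted, and 1.63-fold (1.14 to 2.34) higher in GFP cells than in MHC cells. Kdr and Flt4 each had 92 reads in GFP cells.

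Esm1, which encodes the secreted proteoglycan endocan, differed the most among the 9 genes. Esm1 (ENSMUSG00000042379, chr13:113209659-113218098) had a value of 7.31 in GFP cells, 3147 in MHC cells and 476 in NEG cells. It was near the floor in GFP cells with 8 reads, against 3107 in MHC cells and 421 in NEG cells, so it was 430-fold (218 to 998) lower in GFP cells than in MHC cells and 65.0-fold (32.7 to 152) lower than in NEG cells. Esm1 lies inside the span of Gzmk, a granzyme gene of cytotoxic lymphocytes on the opposite strand (chr13:113171608-113225908), and none of the Gzmk exons annotated in GENCODE M21 falls in the Esm1 span. The table counts reads into every gene whose span they hit, so both genes get the same reads there and Esm1 is uncertain in that sense. Gzmk had 10 reads in GFP cells, 3142 in MHC cells and 428 in NEG cells, only 2, 35 and 7 more than Esm1. The Esm1 span, 15.5% of the Gzmk span, thus held 80.0%, 98.9% and 98.4% of the Gzmk reads in the same order. No other gene of the table that overlaps one of the remaining 8 reaches 25% of its mean value over the 3 libraries. That rule uses means, so it does not cover the low values of Flt1 and Pgf in GFP cells alone. Below, a gene is said to share reads where an overlapping gene reaches 25% of its mean value. The reads in common were not counted.

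**Figure D2:**
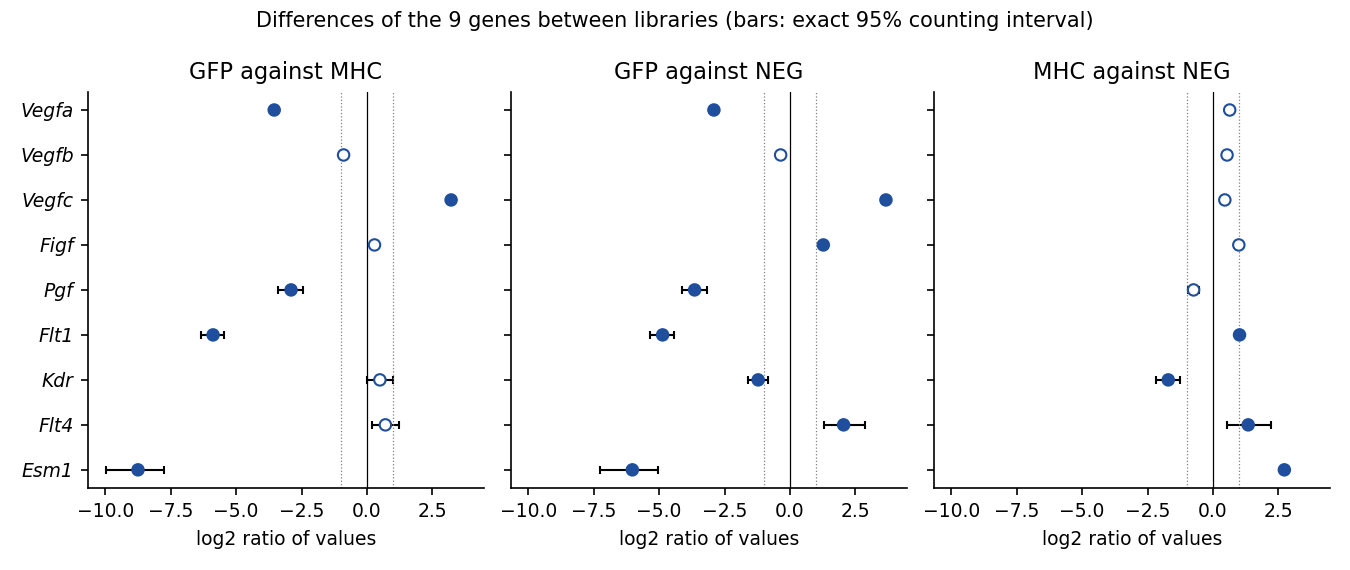
Log2 ratio of the values for each gene in the 3 comparisons, with exact 95% counting intervals as bars, filled points past the rule of size and dotted lines at 2-fold. Esm1 and Flt1 lie farthest to the left in both comparisons of GFP, at 430-fold and 58.9-fold below MHC, and Vegfc farthest to the right.

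The stretches of 250 bases before the transcription starts of Flt1, Esm1 and Vegfc are shown, since these genes had the widest differences of GFP from MHC in either direction. They are RefSeq promoter windows of GRCm38.p6 on the strand of the gene, 5′ to 3′, and end at the base before the start. The bases just after the start were found in a GENCODE M21 transcript of the gene for Flt1 and Esm1 but not for Vegfc. Capitals mark matches to a hypoxia response core (ACGTG or GCGTG, both strands), a cAMP response element (TGACGTCA, both strands), an ETS core (CCGGAA, both strands), an AP-1 motif (TGANTCA, both strands) or a TATA box (TATAAA, gene strand). CACGT and CACGC are the hypoxia core read on the other strand, and no motif contains another.
Flt1, chr5:147726012-147726261, minus strand: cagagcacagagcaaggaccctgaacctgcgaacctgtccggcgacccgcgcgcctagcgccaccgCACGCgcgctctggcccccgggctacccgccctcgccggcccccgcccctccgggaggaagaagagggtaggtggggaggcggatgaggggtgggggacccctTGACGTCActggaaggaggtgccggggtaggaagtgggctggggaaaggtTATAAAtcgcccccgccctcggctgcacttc
Esm1, chr13:113209409-113209658, plus strand: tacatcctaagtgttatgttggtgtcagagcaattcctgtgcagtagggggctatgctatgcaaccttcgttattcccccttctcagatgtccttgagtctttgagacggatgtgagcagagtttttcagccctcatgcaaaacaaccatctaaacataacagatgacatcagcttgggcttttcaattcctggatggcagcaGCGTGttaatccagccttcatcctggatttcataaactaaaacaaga
Vegfc, chr8:54077282-54077531, plus strand: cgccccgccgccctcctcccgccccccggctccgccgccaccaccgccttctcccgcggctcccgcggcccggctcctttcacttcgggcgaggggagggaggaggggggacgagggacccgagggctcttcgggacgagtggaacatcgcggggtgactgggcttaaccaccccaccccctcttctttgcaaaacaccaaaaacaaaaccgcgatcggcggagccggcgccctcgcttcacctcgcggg

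The Flt1 window holds 1 hypoxia response core, 1 cAMP response element starting 81 bases before the start and 1 TATA box starting 31 bases before it. The Esm1 window holds 1 hypoxia response core and the Vegfc window none of these letters. Over all 32851 RefSeq promoter windows cut to the same length, 38.6% hold a hypoxia response core, 1.55% the cAMP response element, 12.0% the ETS core, 6.75% the AP-1 motif and 7.59% the TATA box. All 9 genes matched a window (11 windows, since Vegfa and Pgf have 2 each), and the cAMP response element was found in the Flt1 window alone. Figf had the other TATA box and Kdr the one ETS core. The windows of Flt1 (70.4% G and C) and Vegfc (71.6%) were both above the median of 52.4% over all windows, and those of Esm1 (44.0%) and Figf (42.4%) were below it. For neither Vegfa window were the bases just after the start found in a GENCODE M21 transcript of the gene. The matches describe the letters of the windows, and no binding was measured. The motifs were chosen with the sequences in view.

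Within each library, levels of different genes were set side by side per kb of gene span, because the table counts introns too, and per kb of merged exon length (GENCODE M21). The counted coordinates of Vegfa, Vegfc and Pgf differ from those in GENCODE M21, and the intervals of the ratios do not cover this. Vegfa led the 5 ligands in MHC and NEG cells but not in GFP cells on both scales. Per span kb it made up 15.3% of their summed level in GFP cells, 68.7% in MHC cells and 68.9% in NEG cells, and per exon kb 4.05%, 47.4% and 50.1%. Figf was the largest share in GFP cells on both scales, with 53.2% in GFP cells, 16.8% in MHC cells and 13.2% in NEG cells per span kb and 47.7%, 39.1% and 32.5% per exon kb. Vegfc is a 109 kb gene with 2.45 kb of exons, so its share depends on the scale. It was 13.4% in GFP cells, 0.556% in MHC cells and 0.634% in NEG cells per span kb, but 44.0%, 4.75% and 5.72% per exon kb. The order of Vegfc and Vegfa in GFP cells turns with the scale. Per span kb the level of Vegfc was 0.876 times that of Vegfa in GFP cells, 0.00809 times in MHC cells and 0.00920 times in NEG cells. Per exon kb it was 10.9 times (95% interval 10.3 to 11.4) that of Vegfa in GFP cells, against 0.100 times (0.0944 to 0.106) in MHC cells and 0.114 times (0.106 to 0.123) in NEG cells. Vegfb made up 17.6% in GFP cells, 12.6% in MHC cells and 13.5% in NEG cells per span kb, and Pgf was the smallest ligand in GFP cells on both scales. The order of the summed ligand level also turns with the scale. Per span kb it was 738 in GFP cells, 1919 in MHC cells and 1230 in NEG cells, and per exon kb 10008, 9995 and 6068.

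**Figure D3:**
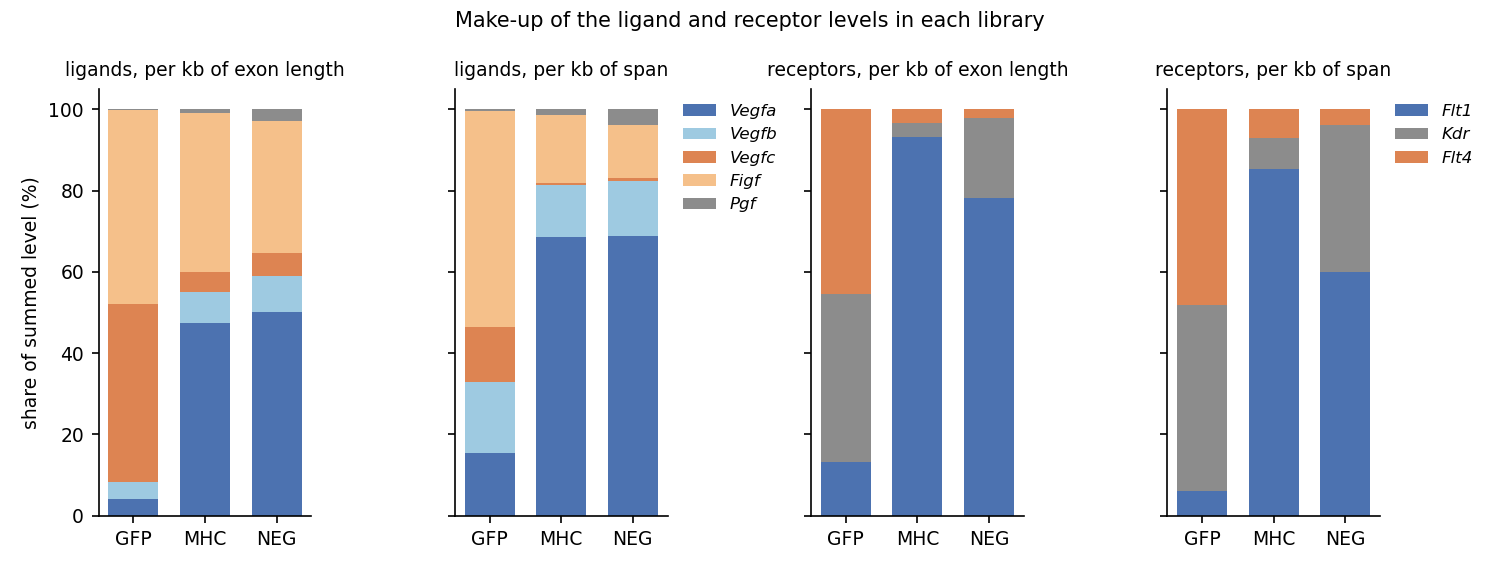
Share of each gene in the summed level of the 5 ligands (left pair of panels) and the 3 receptors (right pair), in percent, per kb of merged exon length or of gene span, in GFP, MHC and NEG cells. Vegfc and Figf fill most of the ligand bar of GFP on the exon scale (44.0% and 47.7%), and Flt1 fills most of the receptor bar in MHC cells (93.2%) and NEG cells (78.3%) but not in GFP cells (13.2%).

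Among the receptors, Flt1 was 6.08% of the summed level in GFP cells, 85.2% in MHC cells and 60.0% in NEG cells per span kb, and per exon kb 13.2%, 93.2% and 78.3%. Per exon kb, Kdr and Flt4 shared the rest about evenly in GFP cells (41.4% and 45.4%) and in MHC cells (3.51% and 3.33%), whereas in NEG cells Kdr had 19.5% and Flt4 2.22%. The level of Flt1 per span kb was 0.133 times that of Kdr in GFP cells, 11.0 times in MHC cells and 1.67 times in NEG cells. Per exon kb it was 0.320 times (0.218 to 0.463) that of Kdr in GFP cells, 26.5 times (20.5 to 35.0) in MHC cells and 4.02 times (3.42 to 4.75) in NEG cells. Flt4 and Kdr were within counting error of each other per exon kb in GFP cells (1.10 times, 0.813 to 1.48) and in MHC cells (0.948 times, 0.639 to 1.40). Against all protein-coding genes ranked by level per exon kb, Vegfa stood above 78.4% of genes in GFP cells, 98.2% in MHC cells and 97.2% in NEG cells. Figf stood above 98.2%, 97.7% and 95.7%, and Vegfc above 98.0%, 81.7% and 76.3%. Flt1 stood above 27.4%, 64.2% and 53.2%, and Kdr above 35.4%, 32% and 40.4%. No rank was taken per span kb, where the level of Vegfc in GFP cells was 0.876 times that of Vegfa.

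Set against NEG, GFP had 3 of the 9 genes higher (Vegfc, Figf and Flt4), 5 lower (Vegfa, Pgf, Flt1, Kdr and Esm1) and Vegfb within 2-fold. In this comparison 29.1% of 20814 genes passed the rule, 14.1% higher and 15.0% lower. It shares the GFP library with the comparison against MHC, so the values of the genes in both are not independent. Set against NEG, MHC had Flt1, Flt4 and Esm1 higher and Kdr lower, with 5 genes within 2-fold. The background here was 10.6% of 20572 genes, 5.35% higher and 5.21% lower. Esm1 was 6.62-fold (5.97 to 7.34) higher in MHC cells than in NEG cells, and Kdr 3.27-fold (2.42 to 4.47) lower. Flt4 was 2.54-fold (1.46 to 4.62) higher on 51 reads in MHC cells against 18 in NEG cells. Flt1 at 2.02-fold (1.88 to 2.2) only just passed the limit, and Figf at 1.98-fold (1.91 to 2.05) only just missed it.

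Levels of endothelial genes were recorded beside these results, since Flt1, Kdr and Esm1 are best known from endothelial cells. Of 31 endothelial markers, 14 had a value under 20 in all 3 libraries and 18 had a mean of 10 or more. The adhesion gene Cdh5 (VE-cadherin), which defines the cell type, had a value of 5.48 in GFP cells, 9.12 in MHC cells and 9.04 in NEG cells, Pecam1 had 15.5, 34.4 and 33.9, and Tie1 4.57, 2.03 and 1.13. The tight junction gene Cldn5 had 0 reads in GFP cells and in MHC cells and a value of 4.52 in NEG cells. Per exon kb in MHC cells, Flt1 had a level of 176 and Esm1 of 1501, while Cdh5 had 2.2, Pecam1 5.53 and Tek 47.7. Per exon kb in GFP cells, Tek had a level of 107 and Flt1 of 2.98. By value, not every marker was low. Tek had 504 in GFP cells, 225 in MHC cells and 277 in NEG cells. Fli1 had 264, 304 and 519, and S1pr1 172, 401 and 497, in the same order. The 31 markers summed to 6090 in GFP cells, 15373 in MHC cells and 16537 in NEG cells, mostly through Cd34, Ramp2, Eng and Egfl7. Each of these genes has an overlapping gene at 25% or more of its mean value. The median of the 31 markers was 15.5 in GFP cells, 13.2 in MHC cells and 24.9 in NEG cells. Of the 18 measured, 4 were higher in GFP cells than in MHC cells (Icam2, Esam, Tek and Egfl7), 5 lower (Pecam1, Erg, Eng, Cd34 and S1pr1) and 9 within 2-fold. Over all measured genes, 29.8% passed the rule in this comparison. The ETS factor gene Erg was 17.9-fold (11.7 to 28.6) lower in GFP cells, at 21 against 376 in MHC cells, and had a value of 831 in NEG cells.

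**Figure D4:**
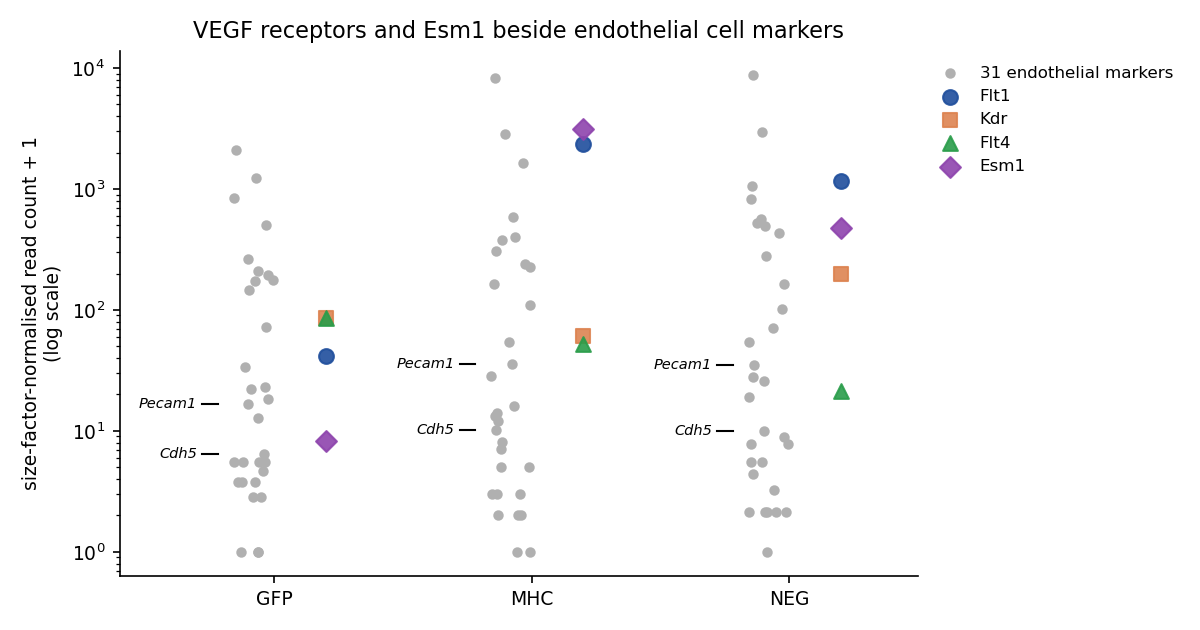
Value + 1 (log axis) of 31 endothelial markers (grey points) and of Flt1, Kdr, Flt4 and Esm1 (coloured symbols) in GFP, MHC and NEG cells, with Pecam1 and Cdh5 labelled. Flt1 and Esm1 sit above most markers in MHC and NEG cells, while Cdh5 stays under 10 in every library.

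Both neuropilin genes were lower in GFP cells than in MHC cells. Of 12 measured VEGF co-receptors and receptor partners, 1 was higher in GFP cells, 4 lower and 7 within 2-fold, at a median log2 ratio of −0.78. Of all 22235 measured genes, 3216 were higher, 3408 lower and 15611 within 2-fold, so that 29.8% passed. The neuropilin gene Nrp1, whose product presents VEGFA to KDR, had a value of 934 in GFP cells, 9427 in MHC cells and 6396 in NEG cells, and was 10.1-fold (9.46 to 10.8) lower in GFP cells than in MHC cells. Nrp2, which binds VEGFC and VEGFD beside FLT4, had 2484, 5671 and 7488, a 2.28-fold (2.18 to 2.39) lower value in GFP cells than in MHC cells. Per exon kb Nrp1 had a level of 95.5 in GFP cells, 963 in MHC cells and 654 in NEG cells, above the level of any of the 3 VEGF receptors in the same library. The glypican gene Gpc1, for a heparan sulphate carrier that binds VEGFA, was 32.7-fold (30.4 to 35.2) lower in GFP cells. The hyaluronan receptor gene Cd44 was the other lower member, and the integrin gene Itgav, 2.18-fold (2.10 to 2.26), the higher one. Itga9, an integrin gene that shares reads with an overlapping gene, lay within 2-fold at 5163 in GFP cells, 7917 in MHC cells and 6552 in NEG cells. Against NEG, 0 of the co-receptors and partners were higher and 5 lower, where 27.0% of all measured genes passed.

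Among intracellular transducers of the receptors, 4 of 29 were higher in GFP cells than in MHC cells, 2 were lower and 23 lay within 2-fold (median log2 ratio 0.22). Beside these 6 past the limit, 29.8% of all measured genes passed it. The adaptor gene Shb, whose product couples to KDR, was 5.86-fold (5.38 to 6.40) higher in GFP cells, at 3534 against 603 in MHC cells and 662 in NEG cells. The genes of the calcium-responsive NFAT factors differed in direction, with Nfatc2 3.03-fold (2.54 to 3.63) higher and Nfatc1 11.5-fold (9.59 to 13.9) lower. Sphk1, for a sphingosine kinase, was 5.27-fold (4.61 to 6.03) lower. The small GTPase genes Cdc42 and Rac1, the most abundant in the list by value, lay within 2-fold.

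Genes that VEGF induces in endothelial cells were spread over both directions. Of 25 such genes, 10 were higher in GFP cells than in MHC cells, 5 lower and 10 within 2-fold, at a median log2 ratio of 0.19, and against NEG 13 were higher and 4 lower (median 1.16). Over all measured genes, 29.8% passed against MHC and 27.0% against NEG. The VEGF-induced genes lower in GFP cells than in MHC cells were Angpt2, Apln, Egr3, Unc5b and Dll4. Angpt2, for a ligand of the TIE2 receptor, had a value of 61.2 in GFP cells, 5032 in MHC cells and 2982 in NEG cells. It was 82.2-fold (64.6 to 106) lower in GFP cells than in MHC cells. Angpt2 is uncertain because the overlapping gene Mcph1 has 25% or more of its mean value. Apln, which encodes the peptide apelin, had 84.1, 867 and 741, 10.3-fold (8.31 to 12.9) lower. The Notch ligand gene Dll4 was low in all libraries, at 5.48 in GFP cells, 20.3 in MHC cells and 11.3 in NEG cells. Among the higher ones, the basement membrane gene Nid2 was 4.06-fold (4.00 to 4.13) and the phosphatase gene Dusp5 3.78-fold (3.57 to 4.00) higher. Egr1, the gene of an immediate early factor, lay within 2-fold.

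Of 8 measured angiopoietin and Tie genes, 5 were lower in GFP cells than in MHC cells, 2 higher and 1 within 2-fold (median log2 ratio −1.60). Without the genes that share reads with an overlapping gene, 2 were lower and 2 higher. Angptl2, the second in mean value, is one of those, at 1661 in GFP cells, 6137 in MHC cells and 5996 in NEG cells. Angpt1, for the activating ligand of TIE2, had a value of 97.8 in GFP cells, 2150 in MHC cells and 1360 in NEG cells, 22-fold (18.1 to 27.0) lower in GFP cells than in MHC cells. Tek, which encodes TIE2 itself, was 2.24-fold (1.91 to 2.63) higher at 504 in GFP cells, 225 in MHC cells and 277 in NEG cells. Svep1, for a matrix protein needed in lymphatic vessel development, was 3.57-fold (3.49 to 3.66) higher. Beside the counts of this list, 29.8% of all measured genes passed the rule between GFP and MHC.

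Extracellular genes that process or hold back VEGF went both ways, with 6 of 27 higher in GFP cells than in MHC cells, 7 lower and 14 within 2-fold (median log2 ratio −0.25). Against NEG, 6 of them were higher and 11 lower. Over all measured genes, 29.8% passed against MHC and 27.0% against NEG. The proteases that mature VEGFC or VEGFD lay within 2-fold between GFP and MHC for Furin, Pcsk5 and Adamts3, as did Ccbe1, which assists ADAMTS3. Adamts2, of the same list, was lower in GFP cells, at 3926 against 13041 in MHC cells and 19748.5 in NEG cells. Pcsk6 had 2355 in GFP cells, 3197 in MHC cells and 12623 in NEG cells. Plau, for the urokinase that turns plasminogen into plasmin, was 18.5-fold (17.2 to 19.9) higher in GFP cells, at 14214 against 768 in MHC cells and 799 in NEG cells. The plasminogen gene Plg itself had 1 read in GFP cells, 3 in MHC cells and 0 in NEG cells. Sema3c, a semaphorin gene whose product binds neuropilins, was 28.5-fold (26.2 to 31.1) higher, at 15768 against 553 in MHC cells and 674 in NEG cells. Serpinf1, which encodes the angiogenesis inhibitor PEDF, was 27.9-fold (24.8 to 31.4) lower, and Chrdl1, for a BMP antagonist, 45.2-fold (33.9 to 61.5) lower. Thbs1, an inhibitor gene of high level, was 2.68-fold (2.66 to 2.70) higher, and Sparc lay within 2-fold.

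Hypoxia-inducible factor (HIF) genes and their targets, of which Vegfa is a known one, were mostly lower in GFP cells. Of 32 listed, all measured, 20 were lower in GFP cells than in MHC cells, 1 higher and 11 within 2-fold, with a median log2 ratio of −1.60. Against NEG 20 were lower and 3 higher (median −1.57), and between MHC and NEG 0 of 32 passed in either direction (median −0.01). Over all 22235 measured genes, 29.8% passed between GFP and MHC, 27.0% between GFP and NEG and 9.66% between MHC and NEG. Targets with lower values included the glycolytic gene Pgk1 at 4062 in GFP cells, 31123 in MHC cells and 34854 in NEG cells, the glucose transporter gene Slc2a1 at 1372, 8991 and 6403 (sharing reads with an overlapping gene), and Car12 at 85.0, 9123 and 11636. Car12, for a carbonic anhydrase, was 107-fold (87.5 to 133) lower in GFP cells than in MHC cells. Of the factors themselves, Hif1a had 8144 in GFP cells, 6850 in MHC cells and 7807 in NEG cells and lay within 2-fold, with shared reads, and Epas1 (HIF-2α) had 206, 2605 and 2143, 12.7-fold (11.0 to 14.6) lower. Arnt2, a partner of the HIF proteins, was 11.7-fold (10.6 to 12.9) higher. Lox and Aldoa, the most abundant by value, were 2.45-fold and 3.23-fold lower. The targets Adm, Car9, Ddit4 and Bnip3l lay within 2-fold between GFP and MHC. All of them had higher values in GFP cells than in MHC cells, and Adm only just missed the limit. Adm had 6802 in GFP cells, 3420 in MHC cells and 1716 in NEG cells, and Car9, with shared reads, 8503, 4485 and 2776. Adm, Car9 and Arnt2 were the members higher in GFP cells than in NEG cells.

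**Figure D5:**
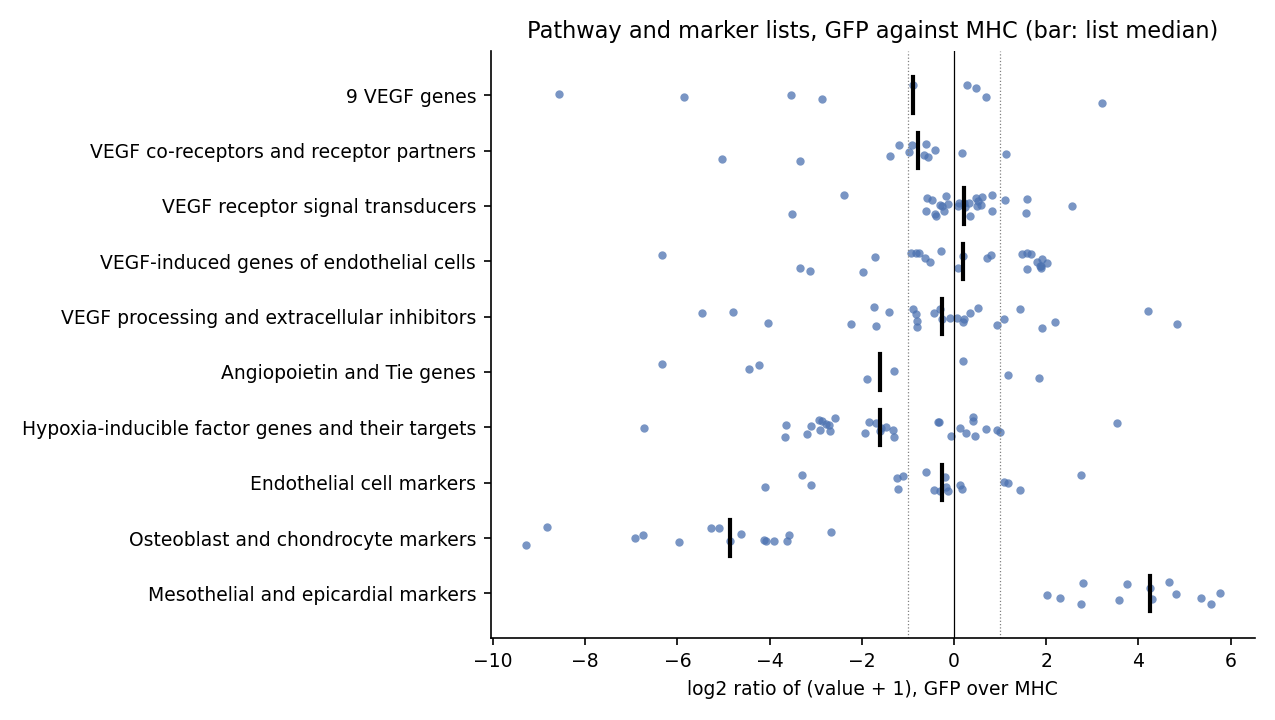
Log2 ratio of (value + 1), GFP over MHC, for the 9 VEGF genes and for measured members of 9 lists (1 point per gene, black bar at the list median, dotted lines at 2-fold). The medians of the hypoxia list (−1.60) and the osteoblast and chondrocyte list (−4.86) lie left of 0, that of the mesothelial and epicardial list (4.25) right of it, and that of the VEGF-induced genes near it (0.19).

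Bone and mural markers were low in GFP cells, as were Flt1, Esm1 and Vegfa. Of 15 osteoblast and chondrocyte markers, all were lower in GFP cells than in MHC cells (median log2 ratio −4.86), and their values summed to 410289 in GFP cells, 3094060 in MHC cells and 4162610 in NEG cells. The collagen gene Col1a1, the most abundant of them, was 6.38-fold (6.36 to 6.40) lower in GFP cells than in MHC cells. The bone sialoprotein gene Ibsp had 2413 in GFP cells, 293616 in MHC cells and 608631 in NEG cells. Mural and smooth muscle markers were lower for 11 of 12 and higher for 1, Mcam (median −2.47), with sums of 12812 in GFP cells, 79349 in MHC cells and 97998 in NEG cells. The smooth muscle actin gene Acta2 had 2363 in GFP cells, 40276 in MHC cells and 38419 in NEG cells, the proteoglycan gene Cspg4 388, 5968 and 30238, and the pericyte gene Rgs5 5.48, 135 and 410. Mesothelial and epicardial markers were high in GFP cells, as was Vegfc, with sums of 229139 in GFP cells, 8972 in MHC cells and 9378 in NEG cells. The uroplakin gene Upk3b had 54258, 995 and 1368, and Lrrn4 had 48158, 1004 and 1157. Cardiomyocyte markers summed to 18857 in GFP cells, 334873 in MHC cells and 11186 in NEG cells. The troponin gene Tnni3 had 352, 9067 and 197, and the myosin gene Myh7, with shared reads, 3304, 73711 and 1523. Beside the counts of these markers, 29.8% of all measured genes passed the rule between GFP and MHC. What part these cell types have in the VEGF values was not tested.

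Over the 3 libraries, the protein-coding genes whose profile lay closest to that of Flt1 were the tenascin gene Tnn, the potassium channel subunit gene Kcne4, Cyp1b1, Hrct1 and Eva1a. Closeness was the Euclidean distance between log2(value + 1) profiles centred on their mean, 0.08 for Tnn to 0.23 for Eva1a, searched over 13472 genes with a value of 100 or more in a library. Tnn had a value of 23.8 in GFP cells, 1454 in MHC cells and 664 in NEG cells. For Esm1 they were Gzmk, which holds the same reads, then the collagenase gene Mmp13, Bpifb1, the bone matrix gene Mepe and Crispld2, which shares reads with an overlapping gene, at distances of 0.22 to 1.0. Mmp13 had a value of 24.7 in GFP cells, 11652 in MHC cells and 2776 in NEG cells. Several of these genes were, like Esm1, near the floor in GFP cells, with values of 3.66 for Bpifb1, 0.914 for Mepe, 4.57 for Hrct1 and 7.31 for Eva1a. With 3 points a profile, the order is a description.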

How the data were processed

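The authors' deposited table holds a normalised signal for 39179 genes in mm10 coordinates, in which read counts are scaled by 1 size factor a library. DESeq2 1.2.10, STAR 2.3.0e, FastQC 0.11.2 and bedtools 2.17.0 are named per the submitters' processing notes, with no role stated for any of them. Value columns were matched to populations by name. In each library 100% of values were whole multiples of 1 read within 0.01, and these whole reads gave the intervals.

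Each population has 1 library, which leaves no spread to estimate, and no count model was run. Genes nested inside a host gene had no more reads than the host in 1047 of 1048 pairs, and in 577 of 577 pairs on opposite strands. Reads were therefore taken as counted over gene spans on both strands. A gene is uncertain where an overlapping gene has 25% or more of its mean value over the 3 libraries. Such genes are described as sharing reads from position and level alone, and the reads in common were not counted. Counting over spans can add intronic reads to long genes.

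The members and the 15 context lists were chosen with earlier results of these data known. List members with a mean value under 10 were left out as not measured. Named were all 9 genes, and per list the 2 highest by mean, the 2 highest and 2 lowest past the rule in GFP cells against MHC and a few defining markers. Other genes were named after their values were seen. Per-length levels used GENCODE M21, the mm10 annotation, and 37693 gene identifiers matched. Scripts ran in Python 3.11.15 with scipy 1.17.1 and were tested on simulated reads. Alternatives were pseudocounts of 0.5 and 10, other minimum values, 2 other scalings, a 3-fold limit and leaving out uncertain genes. Without molecular identifiers, reads can repeat a molecule, so intervals cover counting error only.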

Additional observations from a re-analysis of the deposited data

How the results depend on the processing

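The count of VEGF genes past 2-fold was 5 in GFP cells against MHC and 4 to 5 over the alternatives, 8 in GFP cells against NEG with 6 to 8, and 4 in MHC cells against NEG with 2 to 5. The low end of the last is the 3-fold limit, with 2 genes (Esm1 and Kdr), by its own construction. Under the upper quartile scaling Figf passed in MHC cells against NEG. No recomputed log2 ratio of the 9 genes changed sign. Scaling by total reads moved the median log2 ratio of all genes by 0.17 in GFP cells against MHC and by 0.16 in GFP cells against NEG, and the ratios of Vegfa, Vegfb, Vegfc and Figf moved with it beyond their counting intervals. A pseudocount of 10 reduced the Esm1 ratio in size, to −7.51 against MHC and −4.81 against NEG. Of 360 recomputed list counts, 35 changed by over 1.5 times, 16 of them at 3-fold. At 3-fold the co-receptors had 2 past the limit between GFP and MHC in place of 5. Without uncertain genes the angiopoietin and Tie list had 2 higher and 2 lower in GFP cells than in MHC cells, in place of 2 and 5. Scaled by total reads, the endothelial list had 4 higher and 6 lower in GFP cells against NEG (3 and 8 in the deposited scaling). The angiopoietin and Tie list had 2 and 5 (1 and 5) and the cardiomyocyte list 9 and 0 (7 and 1). All genes moved the same way in this comparison, from 2933 higher and 3122 lower to 3579 and 2693. Nothing is therefore read from these list shifts. In GFP cells against MHC, the hypoxia list had 3 higher and 20 lower (1 and 20). All genes there went from 3253 higher and 3415 lower to 4042 and 2940. Low counts limit Esm1, Flt1 and Pgf in GFP cells (8, 44 and 43 reads) and Flt4 in NEG cells (18 reads). No paired analysis was possible because each population has 1 library and the columns carry no pairing. For the same reason no library could be left out.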

Other observations

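Markers of other cell types that use VEGF genes differed in both directions. Beside the counts given here, 29.8% of all measured genes passed the rule between GFP and MHC. The lymphatic genes had 5 measured members, 2 higher and 2 lower in GFP cells than in MHC cells. The surface glycoprotein gene Pdpn, which mesothelium also expresses, was 5.10-fold (95% interval 4.85 to 5.37) higher in GFP cells, and Prox1, a factor of lymphatic and heart muscle cells, had a value of 74.0 in GFP cells, 434 in MHC cells and 29.4 in NEG cells. Lyve1 had 21.9, 7.09 and 11.3. Trophoblast genes, recorded because placenta is rich in Flt1 and Pgf, had 5 measured members of 12, 2 of them higher and 1 lower in GFP cells than in MHC cells, and Tpbpa, Prl3d1 and Ctsq had 0 reads in all 3 libraries. Ascl2 had 39.3 in GFP cells, 4.05 in MHC cells and 6.78 in NEG cells, Syna 44.8, 16.2 and 46.3, and Hand1, also a heart gene, 78.6, 346 and 160. Haematopoietic genes had 11 measured members, 5 higher and 2 lower in GFP cells than in MHC cells, with the pan-leukocyte gene Ptprc, under the mean of 10, at 10.1 in GFP cells, 4.05 in MHC cells and 3.39 in NEG cells. Others had high values. Runx1 had 858 in GFP cells, 3102 in MHC cells and 2846 in NEG cells, and Cx3cr1, which shares reads with overlapping genes, had 11987, 10148 and 7056. The macrophage gene Emr1 had 96.9, 14.2 and 3.39, Cd68 1220, 503 and 252, and Csf1r, with shared reads, 963, 336 and 334. Laptm5 had 171, 52.7 and 28.2, and Kit 25.6, 121 and 337.

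Among 11 fibroblast genes, 3 had higher values in GFP cells, 6 had higher values in MHC cells and the other 2 were within 2-fold. Thy1 and Pdgfra were among the higher and Fap and Postn the lowest. The most abundant were Col1a2, 3.67-fold (3.66 to 3.68) lower in GFP cells than in MHC cells, and the fibronectin gene Fn1, within 2-fold. Pdgfra, the receptor gene for another vascular growth factor family, had a value of 35383 in GFP cells, 11080 in MHC cells and 9525 in NEG cells. Beside the fibroblast counts, 29.8% of all measured genes passed the rule between GFP and MHC.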
